A study of Homo sapiens with 6 samples.

Results

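CYP1B1 is a cytochrome P450 that hydroxylates estrogens and polycyclic aromatic hydrocarbons, and it is a target of the aryl hydrocarbon receptor (AHR). It was described here with 5 other genes of this pathway, CYP1A1, AHR, ARNT, AHRR and TIPARP, which were matched by symbol among the 24462 symbols of the count files. All 6 members were measured in every library and all 6 passed the filter on low counts, which left 12650 genes. CYP1B1 was picked because of its large fall when an ELK3 plasmid was added to miR-200a. Its values between those groups are therefore a description without a test, and the same holds against the NC mimic, since that comparison uses the same plus-ELK3 libraries. The other 5 members were chosen by pathway, with earlier results of these data known.

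MDA-MB-231, a mesenchymal line derived from triple-negative breast cancer, was harvested 48 h after transfection in 3 groups of 2 libraries. The first group received the NC mimic, a control small RNA. The second received miR-200a, which is given at 100 nM, and the third received miR-200a together with a pcDNA3.1 plasmid for ELK3, given at 30 ng. The labels name the plasmid both as pcDNA3.1 Hygro(+)-ELK3 and as pcDNA3.1-Flag-ELK3, and name no plasmid for the other groups, so ELK3 and the transfer of a plasmid cannot be told apart. That group's libraries are called plus ELK3 as the labels do. The cells were transfected transiently, and the plasmid carries ELK3 without its intact 3′UTR. The study speaks of independent experiments for its statistics in general, but no source used here says that the 2 sequencing libraries of a group came from separate cultures, so p-values measure the spread between these libraries, which may be technical.

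Libraries were sequenced near the 3′ ends of transcripts, and total counts ranged from 3055915 to 4868004. Levels are given as CPM, counts per 1000000 counts of the library, scaled by the trimmed mean of M-values, and on this scale 3 counts equal 0.610 to 0.977 CPM. Of the line's markers, VIM was at 954 to 2457 CPM, ESR1 had 0 counts in every library and PGR at most 1, and CDH1 had 0 to 12 counts, while ERBB2 and EPCAM were detected at 23.2 to 47.2 and 8.67 to 29 CPM. ELK3 itself was at 137 and 166 CPM under the NC mimic, 102 and 103 CPM under miR-200a, and 95.9 and 79.0 CPM in the libraries labelled plus ELK3. It was thus no higher where the plasmid was added, and counts from 3′ ends may not see a transcript without the native 3′UTR, so the label could not be checked on ELK3. The 2 libraries labelled plus ELK3 also differed from each other more than other replicate pairs did, with a chi-square per degree of freedom over genes of 14.1, against 2.46 between NC mimic libraries and 1.90 between miR-200a libraries.

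AHR is a transcription factor of the bHLH-PAS family that waits in the cytosol with HSP90 and other chaperones until a ligand binds it, such as dioxin or a tryptophan metabolite. It then enters the nucleus, pairs with ARNT and binds short response elements with the core GCGTG near its target genes. CYP1A1 and CYP1B1 are its textbook targets, and AHRR and TIPARP are targets that in turn restrain it. In breast tissue, CYP1B1 is known for the 4-hydroxylation of estradiol.

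Whether miR-200a could meet these transcripts directly was first looked at in the sequences. The mature strand of miR-200a from RefSeq (GRCh38.p14, chr1:1167916-1167937, plus strand) is shown because its seed, bases 2 to 8 in capitals, is what pairs with a target.
hsa-miR-200a-3p: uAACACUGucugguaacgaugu
The matching site, CAGTGTT, was present in the 3′UTR of 1 of the 6 members, that of AHR, and was absent as letters from those of CYP1B1, CYP1A1, ARNT, AHRR and TIPARP. Of the 11159 tested genes with an annotated 3′UTR, 2201 held it, which is 19.7%. Only this site was searched, in 1 annotated transcript of each gene. In AHR it lies at nucleotides 895 to 901 of a 3′UTR of 3086 nucleotides (GENCODE 29, GRCh38, chr7:17343959-17343965, plus strand), and it is shown with 10 bases on each side and the site in capitals.
AHR 3′UTR site: aattcctcaaCAGTGTTttcagaagaa

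RefSeq promoters, 250 bases before to 50 after a start, were matched for 5 of the 6 members, and CYP1B1 was not among them. The core GCGTG, searched on both strands, was found once in the promoter of CYP1A1, once in that of AHR, and not in that of ARNT. It was found once and 2 times in the promoters of AHRR, and 2 times, 0 times and 0 times in those of TIPARP. Among 35116 promoters of 300 bases, 36.5% held the core, so its presence is common. The longer form TNGCGTG, which contains that core, was held by 5.51% of promoters and among the members by the first promoter of AHRR alone. The ETS motif CCGGAAG, of the kind that ELK3 and related factors bind, was held by 10.3% of promoters and among the members by the first promoter of TIPARP alone, starting 18 bases before the start. The promoters of CYP1A1 and of the first start of TIPARP are shown because these 2 targets of the receptor passed the test below, with the core or its reverse complement CACGC in capitals.
CYP1A1 promoter (GRCh38.p14, chr15:74725479-74725778, minus strand): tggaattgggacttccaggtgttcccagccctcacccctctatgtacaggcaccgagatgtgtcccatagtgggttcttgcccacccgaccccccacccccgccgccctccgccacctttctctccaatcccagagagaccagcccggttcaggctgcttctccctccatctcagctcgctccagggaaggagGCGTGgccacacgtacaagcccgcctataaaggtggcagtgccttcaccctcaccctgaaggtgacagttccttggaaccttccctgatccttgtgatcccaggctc
TIPARP promoter (GRCh38.p14, chr3:156674340-156674639, plus strand): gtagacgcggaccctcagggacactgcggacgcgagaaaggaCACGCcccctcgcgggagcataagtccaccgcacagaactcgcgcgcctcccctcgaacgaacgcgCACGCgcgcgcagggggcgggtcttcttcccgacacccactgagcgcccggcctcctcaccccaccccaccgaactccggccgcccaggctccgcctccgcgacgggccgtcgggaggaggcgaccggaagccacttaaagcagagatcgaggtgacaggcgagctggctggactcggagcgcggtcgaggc
The core in CYP1A1 starts 57 bases before the start site, and those in TIPARP start 208 and 142 bases before it on the opposite strand. A match describes letters and is not a measured binding site.

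The gene CYP1B1 (GENCODE 29, GRCh38, chr2:38066973-38109902, minus strand) was at 246 and 201.5 CPM under the NC mimic, at 224 and 229.7 CPM under miR-200a, and at 34.7 and 38.2 CPM in the libraries labelled plus ELK3. The first 4 libraries lie close together, and the last 2 lie far below all of them and near each other. In bulk RNA, fewer cells that express a gene and less RNA per cell cannot be told apart. Group means were 224 ± 31.3, 227 ± 3.95 and 36.5 ± 2.47 CPM (SD, n = 2 each). Against miR-200a the fitted log2 fold change was −2.64 (SE 0.15), a level 6.22-fold lower, which placed CYP1B1 29th from the lowest among the 12650 genes. Against the NC mimic it was −2.62 (SE 0.15), a level 6.14-fold lower and 28th from the lowest. Over 14 other settings, each library left out in turn among them, these values ranged from −2.74 to −2.58 and from −2.75 to −2.46. Between miR-200a and the NC mimic the level differed by less than the replicate spread, with a log2 fold change of 0.02 (SE 0.14, adjusted p = 0.987). This estimate turned negative, to −0.11, without replicate 2 of the NC mimic.

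Other genes overlap CYP1B1 on the annotation. Its antisense transcript CYP1B1-AS1, on the opposite strand and outside the last exon, had 0 counts in 4 libraries and 1 count in each library labelled miR-200a plus ELK3. The end of RMDN2, also on the opposite strand, overlaps the outermost bases of CYP1B1, and so does RMDN2-AS1, which lies on the same strand as CYP1B1. Whether the counting used the strand is not given in the sources used here.

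**Figure D1:**
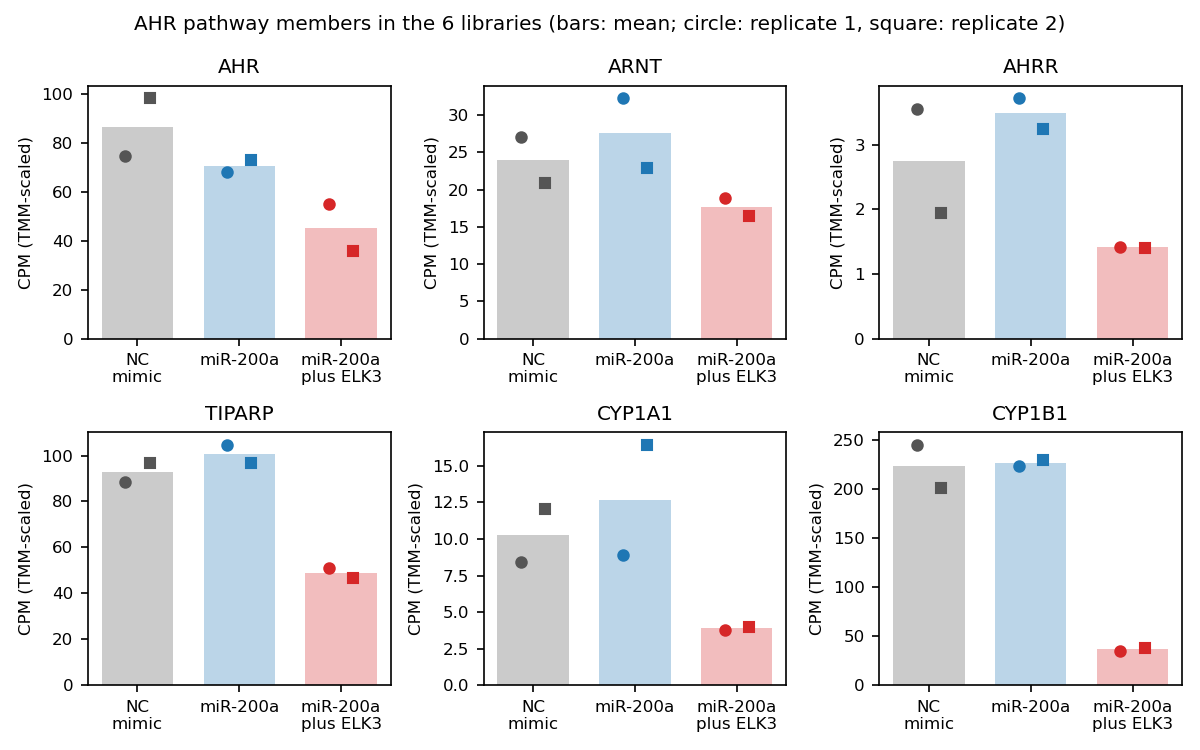
CPM (y axis, each panel from 0) of the 6 members in the 3 groups (x axis). Bars are means of 2 libraries, circles replicate 1 and squares replicate 2. In every panel both libraries labelled plus ELK3 lie below the 4 others, with CYP1B1 at 34.7 and 38.2 CPM against 201.5 to 246 CPM.

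CYP1A1 (chr15:74719542-74725610, minus strand), the closest relative of CYP1B1 among the members and the usual readout of receptor activity, was a low transcript. It had 38 and 37 counts under the NC mimic, 43 and 81 under miR-200a, and 16 and 17 in the plus-ELK3 libraries, or 8.44 and 12.04, 8.91 and 16.5, and 3.78 and 3.99 CPM. The plus-ELK3 libraries were again the lowest, while the miR-200a libraries differed from each other by more than the NC mimic libraries did. Against miR-200a, CYP1A1 fell by 1.70 on the log2 scale (SE 0.39, adjusted p = 0.0222), a level 3.25-fold lower. The call held in 8 of 14 other settings, with adjusted p from 7.31e-05 to 0.224. It was lost without either NC mimic library (0.0537 and 0.0534), without replicate 1 or 2 of miR-200a (0.0766 and 0.224), with the compared groups alone (0.0533) and with limma (0.0831). Against the NC mimic the log2 fold change was −1.37 (SE 0.41, adjusted p = 0.0537), which missed the threshold, and 7 of 14 other settings passed it, the replicate block among them (adjusted p = 0.0453). Between miR-200a and the NC mimic it was 0.33 (SE 0.35, adjusted p = 0.845), and −0.18 without replicate 2 of miR-200a.

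TIPARP (chr3:156673235-156706770, plus strand), a mono-ADP-ribosyltransferase that modifies AHR and limits its activity, had smaller standard errors than the other 4 members besides CYP1B1. It stood at 88.65 and 96.7 CPM under the NC mimic, 105 and 96.8 CPM under miR-200a, and 51.0 and 46.7 CPM in the libraries labelled plus ELK3. The first 4 libraries were alike and the last 2 were clearly apart. TIPARP fell by 1.05 on the log2 scale against miR-200a (SE 0.15, adjusted p = 0.00348), or 2.06-fold, and by 0.92 against the NC mimic (SE 0.15, adjusted p = 0.00529), or 1.89-fold. The call against miR-200a was lost in 3 of 14 other settings, with limma (0.0515) and without replicate 1 or 2 of miR-200a (0.0886 and 0.0718). Against the NC mimic it was lost in 2 of 14, without replicate 1 or 2 of the NC mimic (0.0677 and 0.0968). MiR-200a against the NC mimic gave 0.12 (SE 0.14, adjusted p = 0.863).

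AHRR (chr5:304176-438291, plus strand), the repressor that competes with AHR for ARNT, was near the limit of detection. It had 16 and 6 counts under the NC mimic, 18 and 16 under miR-200a, and 6 and 6 in the plus-ELK3 libraries, or 3.555 and 1.95, 3.73 and 3.25, and 1.42 and 1.41 CPM. Its plus-ELK3 libraries were the lowest in CPM, but 1 NC mimic library was close to them. The log2 fold changes of the plus-ELK3 group were −1.29 against miR-200a (SE 0.51, adjusted p = 0.123) and −1.0 against the NC mimic (SE 0.55, adjusted p = 0.245). Neither passed the test, nor did the difference of miR-200a from the NC mimic, 0.29 (SE 0.47, adjusted p = 0.92). That estimate was −0.03 without replicate 2 of the NC mimic.

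The receptor AHR (chr7:16916359-17346152, plus strand) had 74.4 and 98.3 CPM under the NC mimic, 68.15 and 73.0 CPM under miR-200a, and 54.8 and 35.9 CPM in the libraries labelled plus ELK3. The 3 groups thus formed a descending series without overlap, but the spread inside the first and the last group was wide. AHR fell by 0.92 on the log2 scale in the plus-ELK3 group against the NC mimic (SE 0.22, adjusted p = 0.0232), a level 1.9-fold lower. The call held in 8 of 14 other settings, with adjusted p from 5.57e-07 to 0.221. It was lost without replicate 1 or 2 of the NC mimic (0.0862 and 0.221), without replicate 1 or 2 of miR-200a (0.063 and 0.065), with the compared groups alone (0.0612) and with limma (0.0837). Against miR-200a the log2 fold change was −0.64 (SE 0.22, adjusted p = 0.0772). That comparison passed in 3 of 14 other settings, among them without replicate 1 of the plus-ELK3 group (−0.99, adjusted p = 2.19e-05), the library of that group in which AHR was higher. Without replicate 2 of that group the value was −0.40 (adjusted p = 0.0668).

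For AHR, the only member in whose 3′UTR CAGTGTT was found, the log2 fold change of miR-200a against the NC mimic was −0.29 (SE 0.21). The difference did not pass the test (adjusted p = 0.744, and 0 of 14 other settings passed). On GENCODE 29 the last exon of AHR also overlaps AC019117.2, a gene on the same strand, and the annotation behind the counts is not given in the sources used here, so reads of both could share a count.

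ARNT (chr1:150809705-150876768, minus strand), the partner of AHR and of the hypoxia-inducible factors, had 27.1 and 20.8 CPM under the NC mimic, 32.3 and 23.0 CPM under miR-200a, and 18.9 and 16.4 CPM in the libraries labelled plus ELK3. The plus-ELK3 libraries were lowest by a small margin. None of its log2 fold changes passed the test, with −0.65 against miR-200a (SE 0.25, adjusted p = 0.107), −0.45 against the NC mimic (SE 0.25, adjusted p = 0.253) and 0.19 for miR-200a against the NC mimic (SE 0.24, adjusted p = 0.882). The first of these passed in 1 of 14 other settings, without replicate 1 of the plus-ELK3 group (adjusted p = 0.0181). The last turned to −0.07 without replicate 1 of miR-200a.

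Over the 5 members other than CYP1B1, both libraries labelled plus ELK3 lay below both miR-200a libraries for 5 of 5 genes and below both NC mimic libraries for 5 of 5. Among all 12650 genes this held for 28% and 27.6%. Of these 5 members, the test called 2 lower against miR-200a, TIPARP and CYP1A1, and 2 lower against the NC mimic, TIPARP and AHR. The background of lower calls was 5.91% and 5.95% of genes, and that of calls in either direction was 12.9% in both comparisons, with 889 higher and 748 lower against miR-200a and 875 higher and 753 lower against the NC mimic. With upper-quartile scaling these splits became 622 and 882, and 677 and 902, and with limma 25 and 82, and 165 and 226. Both comparisons share the plus-ELK3 libraries. Without replicate 1 of the plus-ELK3 group, log2 fold changes of the 5 members against miR-200a ran from −1.675 (CYP1A1) to −0.76 (ARNT). Without replicate 2 they ran from −1.77 (CYP1A1) to −0.40 (AHR). Leaving out either miR-200a library lost the calls against miR-200a, and leaving out either NC mimic library lost those against the NC mimic. Calls over all genes fell in the same settings, and rose without either plus-ELK3 library. Limma called 0 and 1 of the 5, beside 107 and 391 of all genes. All 5 were lower in both comparisons in every setting that tested them. Since the libraries of the groups did not overlap, leaving 1 out could hardly have turned these signs.

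Under miR-200a alone, edgeR called 0 of the 6 members against the NC mimic, beside 0.269% of all genes. None of the 6 reached an unadjusted p under 0.05, and DESeq2 and limma called 0 as well. The estimates ran from −0.29 for AHR to 0.33 for CYP1A1.

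**Figure D2:**
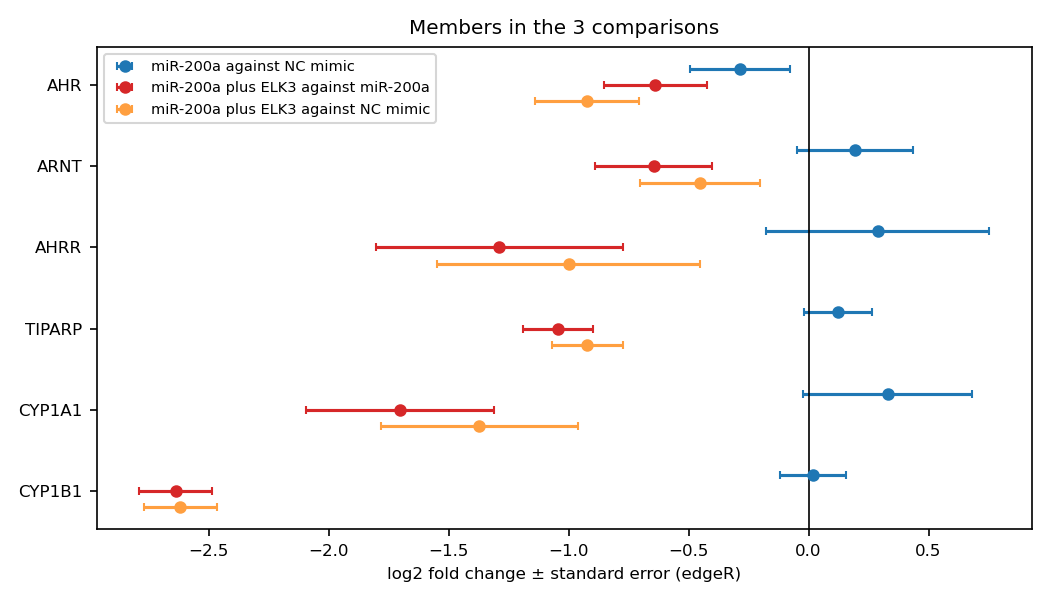
Log2 fold change (x axis) of each member (y axis) in the 3 comparisons, from the edgeR fit. Points are estimates and bars are standard errors derived from the test statistic. The estimates of miR-200a against the NC mimic lie between −0.29 and 0.33, and those of the plus-ELK3 group lie below 0 for all 6 members, CYP1B1 at −2.64 and −2.62 without a test.

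The rest of the pathway was described from 8 lists of 67 genes, of which 51 were tested. Against miR-200a, 4 were called higher and 10 lower in the plus-ELK3 group, or 27.5% of those tested, and against the NC mimic 5 were higher and 10 lower, or 29.4%. The background of 12.9% stands beside both, and beside the count of each list below. The median log2 fold changes over the 51 genes were −0.21 and −0.26, beside 0.02 and 0.01 over all genes. Leaving out a library of miR-200a or of the NC mimic lowered the count against that group. Leaving out a library of the plus-ELK3 group raised both counts. Calls over all genes moved the same way in these settings. For miR-200a against the NC mimic the count was 0 of 51 with edgeR, where 6 genes had an unadjusted p under 0.05, beside 9.24% of all genes, and limma called 0. DESeq2 called 1, the amino-acid transporter SLC7A5. With edgeR the count was 7 for the 2 compared groups alone and 2 without a filter, beside 999 and 230 genes in all.

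Enzymes that supply tryptophan-derived ligands showed no call among 6 tested in either plus-ELK3 comparison. At an unadjusted p under 0.05, 2 passed against miR-200a and 1 against the NC mimic, beside 30.6% of all genes in each comparison, and DESeq2 and limma called 0. IDO1, IDO2 and TDO2, which open that route, reached at most 2 counts, 0 counts and 0 counts. CCBL1, a kynurenine aminotransferase, had log2 fold changes of −0.57 against miR-200a (adjusted p = 0.0799) and −0.21 against the NC mimic (adjusted p = 0.502). AFMID, the formamidase of the kynurenine route, gave −0.12 and −0.26 (adjusted p = 0.673 and 0.347).

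Among 4 cytosolic chaperones of AHR, 2 rose and none fell, beside 12.9% of all genes called in either direction. HSP90AA1 and HSP90AB1, the HSP90 proteins that hold AHR in the cytosol, rose in the plus-ELK3 group, and both were called in both comparisons. HSP90AA1 stood at 3256 and 3026 CPM under the NC mimic, 3177 and 3189 CPM under miR-200a, and 4775 and 5494 CPM in the plus-ELK3 libraries. It rose by 0.69 on the log2 scale against miR-200a (SE 0.11, adjusted p = 0.00504) and by 0.71 against the NC mimic (adjusted p = 0.00397). HSP90AB1 rose by 0.46 (adjusted p = 0.0197) and 0.35 (adjusted p = 0.0497), and the latter call held in 4 of 14 other settings. Both genes have processed pseudogenes, and counts of reads shared with those are uncertain. The co-chaperone PTGES3 did not pass, with 0.17 against miR-200a (adjusted p = 0.401).

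Of 8 other bHLH-PAS proteins, which share the fold of AHR or its partner, 3 fell and none rose against miR-200a. Among all genes, 5.91% were called lower in that comparison. The 3 that fell were HIF1A and EPAS1, the oxygen-regulated subunits that pair with ARNT, and ARNT2, a relative of ARNT. EPAS1 was at 40.2 and 43.3 CPM under the NC mimic, 67.5 and 49.4 CPM under miR-200a, and 28.8 and 21.3 CPM in the plus-ELK3 libraries. It fell by 1.22 on the log2 scale against miR-200a (SE 0.21, adjusted p = 0.00819), and the value against the NC mimic was −0.73 (adjusted p = 0.0545). HIF1A fell by 0.73 (adjusted p = 0.00652) and by 0.70 (adjusted p = 0.00697). ARNT2, at 9 to 52 counts per library, fell by 1.43 against miR-200a (SE 0.40, adjusted p = 0.0444), a call that held in 4 of 13 other settings. It was −2.17 without replicate 1 and −0.97 without replicate 2 of the plus-ELK3 group, and its value against the NC mimic was −1.10 (adjusted p = 0.113).

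Among 9 coregulators, 2 rose and 1 fell against miR-200a, and none rose and 1 fell against the NC mimic. Their median log2 fold changes were 0.28 and 0.33. The gene that fell was NCOA3, a coactivator of nuclear receptors and AHR. NCOA3 fell by 0.94 against miR-200a (SE 0.16, adjusted p = 0.00703) and by 0.77 against the NC mimic (adjusted p = 0.0148). Its CPM was 55.8 and 65.1 under the NC mimic, 67.7 and 67.7 under miR-200a, and 35.9 and 34.7 in the plus-ELK3 libraries, so the groups did not overlap. The acetyltransferase CREBBP rose by 0.61 against miR-200a (adjusted p = 0.0481). This call held in 2 of 14 other settings, and the gene was not called against the NC mimic (adjusted p = 0.0501). Of 6 genes for turnover or repression, 1 was called against miR-200a and 2 against the NC mimic. HDAC5, a histone deacetylase, fell by 1.36 against miR-200a (SE 0.33, adjusted p = 0.0271) and was at −0.99 against the NC mimic (adjusted p = 0.0831). There, STUB1, a ubiquitin ligase of chaperone clients, rose by 0.59 (adjusted p = 0.0232), and CUL4B, a scaffold of the ligase that AHR joins, fell by 0.58 (adjusted p = 0.043, held in 5 of 14 other settings).

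**Figure D3:**
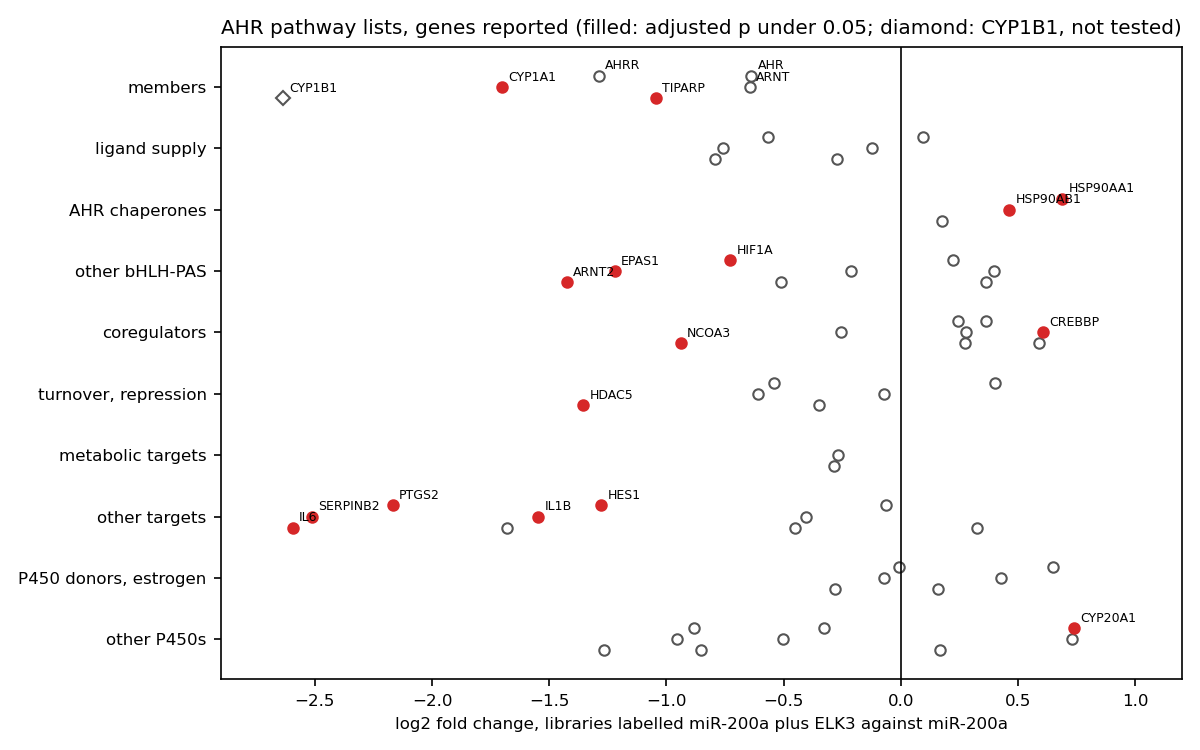
Log2 fold change of the plus-ELK3 group against miR-200a (x axis) of tested genes of each list that are reported here (y axis, points spread vertically for legibility). Filled points had an adjusted p under 0.05, open points did not, and the diamond is CYP1B1 without a test. HSP90AA1 and HSP90AB1 lie to the right of 0, and the members and most called targets lie to the left.

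Of 9 drug metabolism genes that AHR is known to induce, 2 were tested, since CYP1A2, CYP2S1, ALDH3A1, UGT1A1, UGT1A6, GSTA1 and ABCG2 had at most 9 counts in any library. NQO1, a quinone reductase, was at 242 and 243.5 CPM, 205.5 and 225 CPM, and 196.5 and 161 CPM in the 3 groups in order, with −0.27 against miR-200a (adjusted p = 0.21) and −0.44 against the NC mimic (adjusted p = 0.0589). NFE2L2, the antioxidant factor that also drives NQO1, gave −0.28 and −0.37 (adjusted p = 0.202 and 0.109). Neither was called by edgeR, DESeq2 or limma in either comparison, while 0 and 2 had an unadjusted p under 0.05.

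Of 10 tested genes outside drug metabolism with known AHR induction, 5 fell and none rose against miR-200a. Against the NC mimic, 7 fell and 1 rose. Among all genes, 5.91% and 5.95% were called lower in these comparisons. IL6, a cytokine, was at 123 and 181 CPM under the NC mimic, 146 and 179 CPM under miR-200a, and 43.2 and 10.5 CPM in the plus-ELK3 libraries. The plus-ELK3 libraries were far below the rest but also far from each other. IL6 fell by 2.59 against miR-200a (SE 0.44, adjusted p = 0.00744) and by 2.49 against the NC mimic (adjusted p = 0.00786), and the first value was −3.95 without replicate 1 and −1.94 without replicate 2 of the plus-ELK3 group. PTGS2, the inducible cyclooxygenase, fell by 2.17 (SE 0.40, adjusted p = 0.00947) and by 2.50 (adjusted p = 0.00483), and its value against miR-200a was −1.70 without replicate 1 and −2.94 without replicate 2. SERPINB2, a protease inhibitor, had 49 and 33 counts, 19 and 15 counts, and 4 and 1 counts, a descending series, and fell by 2.51 against miR-200a (SE 0.61, adjusted p = 0.0254), with −3.75 without replicate 1 and −1.88 without replicate 2 (adjusted p = 0.0553). Against the NC mimic its log2 fold change was −4.135 (SE 0.53, adjusted p = 0.00179), an estimate that rests on 5 counts in the plus-ELK3 group. NEDD9, a scaffold of focal adhesions, was at −1.68 against miR-200a (adjusted p = 0.0754) and fell by 2.28 against the NC mimic (adjusted p = 0.025), from 18 and 17 counts to 4 and 4.

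The remaining calls of that list were named after their values were seen. IL1B, a cytokine, fell by 1.55 against miR-200a (adjusted p = 0.0114) and by 1.57 against the NC mimic (adjusted p = 0.0104), with −2.22 without replicate 1 and −1.12 without replicate 2 of the plus-ELK3 group against miR-200a. HES1, a repressor downstream of Notch, fell by 1.28 (adjusted p = 0.00804) and by 1.67 (adjusted p = 0.00229). Its value against miR-200a was −1.81 without replicate 1 and −0.93 without replicate 2 of the plus-ELK3 group. EREG, a ligand of the EGF receptor, fell by 1.11 against the NC mimic (adjusted p = 0.0225). Against miR-200a its value was −0.41 (adjusted p = 0.322), and miR-200a against the NC mimic gave −0.70 (adjusted p = 0.405). SLC7A5 was the gene that rose, by 1.15 against the NC mimic (SE 0.16, adjusted p = 0.00238), from 44.9 and 37.8 CPM to 95.7 and 88.4 CPM. Under miR-200a alone it was already at 72.7 and 74.0 CPM.

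The genes around the reaction of CYP1B1 were described as well, since the enzyme needs electrons from POR and shares estrogen metabolites with other enzymes. None of 6 tested passed against miR-200a, by edgeR, DESeq2 or limma or at an unadjusted p under 0.05. The largest estimate was 0.65, for HSD17B1. POR, the reductase, was at 22.0 and 31.9 CPM, 28.8 and 30.9 CPM, and 30.2 and 36.3 CPM, and its values overlap between groups. STS, the steroid sulfatase, rose against the NC mimic by 1.12 (SE 0.27, adjusted p = 0.0274), from 8.89 and 14.97 CPM to 23.6 and 27.0 CPM. Under miR-200a alone it was at 19.1 and 18.5 CPM, and against miR-200a its value was 0.43 (adjusted p = 0.283). The estimates of the electron donors POR, CYB5A and CYB5R3 against miR-200a were 0.16, −0.0096 and −0.07.

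Other P450 genes allow the family to be set beside CYP1B1. Of 51 such genes outside the lists, 9 were tested. Against miR-200a 1 was called, or 11.1%, and against the NC mimic 2 were called, or 22.2%, beside 12.9% of all genes. The call against miR-200a was CYP20A1, a P450 without a settled substrate, which rose by 0.74 (SE 0.16, adjusted p = 0.0179). CYP20A1 also rose by 0.68 against the NC mimic (adjusted p = 0.0241). CYP2U1, a fatty acid hydroxylase, fell by 1.53 against the NC mimic (SE 0.45, adjusted p = 0.05 after rounding, just under the threshold). This call held in 3 of 13 other settings, with −1.08 without replicate 1 and −2.16 without replicate 2 of the plus-ELK3 group. CYP2U1 was at −0.88 against miR-200a (adjusted p = 0.223). Log2 fold changes of the 9 genes against miR-200a ran from −1.27 to 0.74, with a median of −0.50, beside −2.64 for CYP1B1 and −1.70 for CYP1A1.

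The genes whose profile was most like that of CYP1B1 were found among 9933 genes with a mean log2 CPM above 3, by the root mean square difference of log2 CPM after each gene's own mean over the 6 libraries was removed. The 5 closest were C10orf10 (0.189), GDF15 (0.243), TP53I11 (0.283), IL24 (0.297) and PER1 (0.299), beside a median of 1.26 over all these genes. GDF15, a stress-induced cytokine, was at 324 and 275 CPM, 255 and 251 CPM, and 33.3 and 32.1 CPM in the 3 groups in order. IL24, a cytokine of the IL10 family, was at 232 and 198 CPM, 228 and 225 CPM, and 51.5 and 59.55 CPM. PER1, a circadian repressor that also carries a PAS domain, was at 22.9 and 32.2 CPM, 20.3 and 22.2 CPM, and 3.07 and 4.69 CPM. C10orf10, also called DEPP1, fell from 51.8 and 41.7 CPM under miR-200a to 7.32 and 6.80 CPM. TP53I11 had means of 19.4, 29.8 and 4.1 CPM in the 3 groups in order. The likeness was chosen on these 6 libraries and has no test. The members stood farther off, at 0.66 for CYP1A1, 0.784 for TIPARP, 0.828 for AHRR, 0.909 for AHR and 1 for ARNT.

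**Figure D4:**
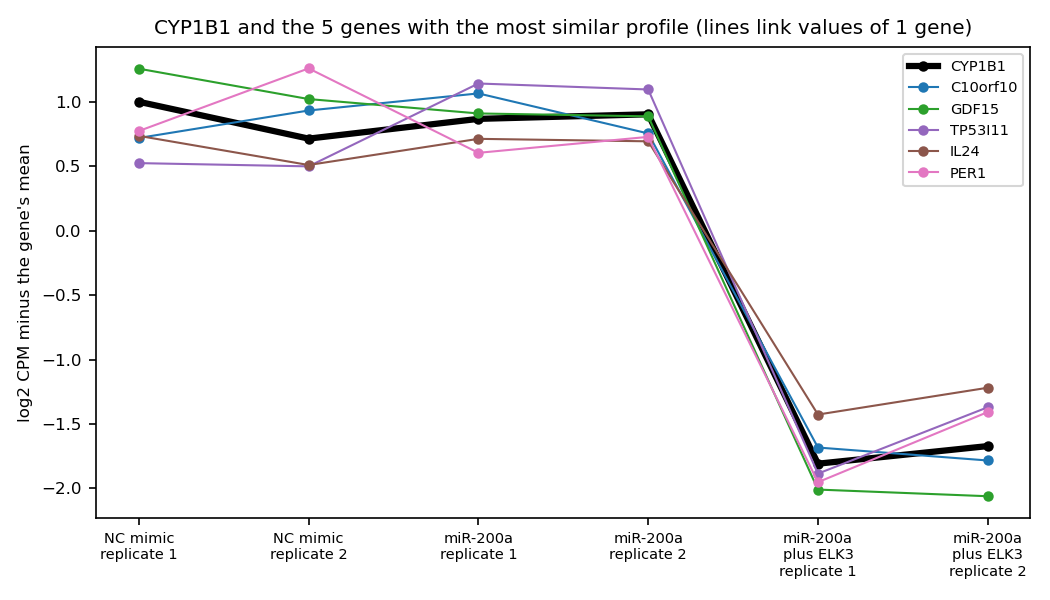
Log2 CPM minus the gene's own mean over the 6 libraries (y axis) for CYP1B1 and the 5 genes with the most similar profile, by library (x axis). Lines link the values of 1 gene and imply no order. All 6 genes drop in both libraries labelled plus ELK3. Between the NC mimic and miR-200a they moved in differing directions, with log2 fold changes from −0.36 for PER1 to 0.62 for TP53I11.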

How the data were processed

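For each of 6 QuantSeq 3′ mRNA libraries, the authors deposited a table of read counts by gene symbol, not normalized. The submitters' processing notes name Bowtie2, edgeR and hg19, and the paper names ExDEGA. The counting program and annotation are not given in the sources used here. Each library lists 25737 lines, and the 286 symbols on several lines were summed to 24462. Groups came from the sample labels. Genes with enough counts (filterByExpr, minimum count 10) were tested with the quasi-likelihood test of edgeR 4.0.16 (R 4.3.3) after TMM scaling, in 1 model of all 6 libraries with 3 residual degrees of freedom. P-values were adjusted by Benjamini-Hochberg over 12650 genes, and called means an adjusted p under 0.05. The SE of a log2 fold change is its absolute value divided by the square root of the F statistic of that test. For CYP1B1 in the plus-ELK3 comparisons the SE is given as description and not as a test. An exact permutation test of 2 against 2 libraries cannot go below 0.333 and was not used. Reads carry no molecular identifiers. Alternatives were DESeq2 1.42.0, upper-quartile scaling, other filters, the 2 compared groups alone, the replicate number as a block, limma 3.58.1 after quantile normalization of log2(count + 1), and each library left out. The steps were run on simulated counts that had the same spread setting for all genes and groups. The real plus-ELK3 pair differed more than the other pairs, so that run does not show how the fit behaves there.

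The members and lists were chosen with earlier results of these data known. Named genes are the 6 members, up to 4 called genes per list with the largest change against miR-200a (in a list without calls, up to 2 with the highest counts), the 5 genes most like CYP1B1, CYP1B1-AS1, ELK3 and line markers. Gene positions are from GENCODE 29 on GRCh38, while the counts, made on hg19, were matched to them by symbol only. Genes of the lists that are not reported here still enter the counts over lists.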

Additional observations from a re-analysis of the deposited data

How the results depend on the processing

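Counts of called genes depended on the fit. Between miR-200a and the NC mimic, 34 genes became 88 with DESeq2, 230 without a filter, 999 with the compared groups alone, 13 with the replicate block, 22 with the block crossed and 4 with limma, and 0 to 1010 with 1 library left out. For the plus-ELK3 group against miR-200a, 1637 became 2490 without a filter, 579 with the compared groups alone, 107 with limma and 31 to 4684 with 1 library left out. Against the NC mimic, 1628 became 2525, 598, 391 and 96 to 4675 in the same order.

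Of the AHR pathway genes, the 0 calls of miR-200a against the NC mimic became 1 with DESeq2, 2 without a filter, 7 with the compared groups alone, and 0 to 6 with 1 library left out. The 14 calls against miR-200a became 9 with the compared groups alone, 0 with limma and 0 to 29 with 1 library left out. The 15 calls against the NC mimic became 23 without a filter, 9, 4 and 2 to 32. In the plus-ELK3 comparisons the highest counts of pathway genes came without replicate 1 of that group, as did the highest counts over all genes. The cause was not tested.

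Signs turned for 5 values that were not called, each with 1 library left out. In log2 fold change of miR-200a against the NC mimic these ran from −0.11 to 0.17 for CYP1B1, −0.18 to 0.70 for CYP1A1, −0.068 to 0.42 for ARNT and −0.026 to 0.83 for AHRR. For CCBL1 in the plus-ELK3 group against the NC mimic they ran from −0.48 to 0.0010.

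Same-numbered libraries did not deviate together, with correlations over genes of −0.003, −0.04 and −0.11. With 2 libraries a group, this cannot exclude that the numbers pair them. The replicate block gave 1157 and 1172 calls in the plus-ELK3 comparisons and the crossed block, chosen after seeing the data, 1644 and 1661. AHRR had 6 to 18 counts per library, the fewest of the members.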
